A study of Homo sapiens with 6 samples.

Results

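The transcripts described here are 10 non-coding snoRNA host genes, GAS5, SNHG1, SNHG5, SNHG6, SNHG8, SNHG12, SNHG15, SNHG16, ZFAS1 and EPB41L4A-AS1. They were taken by symbol from the 62700 Ensembl gene IDs of the deposited count table, and each symbol matched 1 ID. RNA was measured in 6 libraries of HEK293T, a transformed line from human embryonic kidney with the large T antigen of SV40. In 3 editor libraries the cells had received, with Lipofectamine 2000, a plasmid for the adenine base editor SpRY-ABE8e and gRNAs, marked SA and SD in the labels, that target APP exon 17. In 3 GFP libraries they had received a GFP plasmid with the same reagent, and RNA of both groups was polyA-selected. SpRY is an engineered Cas9 that accepts nearly any PAM, and ABE8e is the deaminase fused to it, which turns A to G. The share of cells that took up either plasmid was not analysed here, and in bulk RNA fewer cells with a transcript and less of it per cell cannot be told apart.

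A snoRNA host gene carries small nucleolar RNAs in its introns. Box C/D snoRNAs guide methylation of the sugars of ribosomal RNA and box H/ACA snoRNAs guide the change of uridine to pseudouridine, and most are cut out of the spliced-out introns of a host. Many hosts code for ribosomal proteins or translation factors. In the non-coding hosts the intron RNA is the known product, and the spliced exons are often degraded quickly by nonsense-mediated decay, because ribosomes meet early stop codons in them. Many hosts of both kinds start with a 5′ terminal oligopyrimidine tract (TOP), a C followed by a run of C or T, through which the mTOR pathway controls their translation. GAS5 is known for rising when growth or translation stops.

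The annotated starts are shown because the TOP tract is the feature that these hosts are known for. Each line gives 40 bases before and 30 bases from the gene start of RefSeq (GRCh38.p14), 5′ to 3′ on the gene's strand. Capitals mark TATAA and the run of a C followed by at least 4 C or T that begins within 10 bases of the start. The search covered the transcribed strand, and TATAA was looked for with its first base 20 to 45 bases before the start.
SNHG5, chr6:85678704-85678773, minus strand: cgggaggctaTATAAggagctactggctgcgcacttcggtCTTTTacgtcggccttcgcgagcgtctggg
ZFAS1, chr20:49278602-49278671, plus strand: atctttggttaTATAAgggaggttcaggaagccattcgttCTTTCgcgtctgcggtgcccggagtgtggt
SNHG12, chr1:28581844-28581913, minus strand: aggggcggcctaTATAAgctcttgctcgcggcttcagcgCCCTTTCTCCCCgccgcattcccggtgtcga
SNHG8, chr4:118278722-118278791, plus strand: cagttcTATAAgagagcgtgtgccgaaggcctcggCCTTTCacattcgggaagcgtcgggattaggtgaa
SNHG16, chr17:76557724-76557793, plus strand: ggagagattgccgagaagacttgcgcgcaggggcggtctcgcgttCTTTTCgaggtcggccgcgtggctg
SNHG1, chr11:62855856-62855925, minus strand: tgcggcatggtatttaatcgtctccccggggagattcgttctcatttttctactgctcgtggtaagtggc
EPB41L4A-AS1, chr5:112160486-112160555, plus strand: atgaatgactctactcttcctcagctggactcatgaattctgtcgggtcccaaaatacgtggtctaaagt

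A promoter entry was found for 8 of the 10 genes. Of these 8, 5 held the pyrimidine run (SNHG5, SNHG8, SNHG12, SNHG16 and ZFAS1), against 31.4% of 35116 RefSeq promoters and 82.1% of the 78 promoters of ribosomal protein genes. TATAA stood 28 to 34 bases before the start in SNHG5, SNHG8, SNHG12 and ZFAS1, which is 4 of 8 against 4.09% of all promoters and 8.97% of those of ribosomal protein genes. In SNHG5 and ZFAS1 the run began on the start base itself. The RefSeq start of GAS5 (base 173869045, minus strand) lies upstream of the GENCODE release 29 gene and showed neither feature. Among the GENCODE transcripts, 7 of 29 for GAS5 had such a run within their first 6 bases, and 4 of 8 for SNHG16. The first 30 bases of a GAS5 and an SNHG16 transcript, chosen because the run starts at base 1, were identical over their first 11 bases.
GAS5-210: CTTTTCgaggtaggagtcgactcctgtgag
SNHG16-204: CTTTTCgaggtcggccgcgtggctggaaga
Over the 10 genes, 35 of 136 transcripts had the run within their first 6 bases (25.7%), against 10.2% of 206694 transcripts in the release. None was found for SNHG15 (0 of 10 transcripts) or EPB41L4A-AS1 (0 of 4). A match of letters is a description of these windows and does not show that a start is used in HEK293T cells.

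Library totals ran from 110519197 to 152625595 counts. Over all genes, a chi-square test of the counts gave 3.405 per degree of freedom between editor libraries 2 and 3 and 35.54 to 216.5 for every other pair, and editor libraries 2 and 3 were kept as separate samples. With their counts summed as 1 library, 0 of 10 hosts were called, where 0.0286% of all genes were. Editor library 1 was nearer to GFP library 3 (44.3) than to the other editor libraries (118.1 and 125.4). APP, the targeted gene, stood at -0.15 on the log2 scale (SE 0.12, edgeR adjusted p = 0.752). This is no check of the labels, since loss of an exon need not change a gene's count. None of the markers of HEK293T cells, fibroblasts, leukocytes or endothelial cells was at 0 in all libraries. The 12 markers of HEK293T cells summed to 1870 to 1980 CPM (counts scaled to library size with TMM) in the editor libraries. In the GFP libraries they summed to 2190 to 2200 CPM. The largest part of that sum was VIM, at 940.7 ± 7.81 and 1191 ± 67.3 CPM (SD, n = 3 each). The 10 fibroblast markers summed to 43.4 to 46.0 against 36.5 to 38.5 CPM, the 6 leukocyte markers to at most 3.91 CPM and the 5 endothelial markers to at most 2.66 CPM. The part of these differences in the results below was not tested.

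All 10 host transcripts were expressed in both groups, and all 10 passed the filter on low counts. Together they took 0.0989% to 0.127% of the counts of a library, and GAS5 and SNHG16 made up 59.5% to 62.3% of those reads. Levels can be compared between genes only per length, so CPM were divided by the annotated exon length in kilobases (GENCODE release 29). On that scale GAS5 was highest, at 79.0 ± 5.36 CPM per kilobase (SD, n = 6 libraries of both groups), followed by SNHG16 at 70.3 ± 7.48 and SNHG6 at 67.9 ± 4.72. The ranges of these 3 over the 6 libraries overlapped, but within each library GAS5 was the highest of them. The order of SNHG16 and SNHG6 differed between libraries and is not resolved. SNHG1 (44.0 ± 4.0) and SNHG8 (43.5 ± 4.47) formed the next pair, and EPB41L4A-AS1 (18.6 ± 1.66) and ZFAS1 (17.2 ± 1.06) the pair after that, again with overlapping ranges within each pair. SNHG15 (6.77 ± 1.52), SNHG5 (2.64 ± 0.213) and SNHG12 (1.11 ± 0.102) stood below, each separated from its neighbours in every library. With the longest transcript as the length, GAS5 stayed first and SNHG12 last, while SNHG16 and SNHG6, SNHG1 and SNHG8, and EPB41L4A-AS1 and ZFAS1 changed places within each pair.

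**Figure D1:**
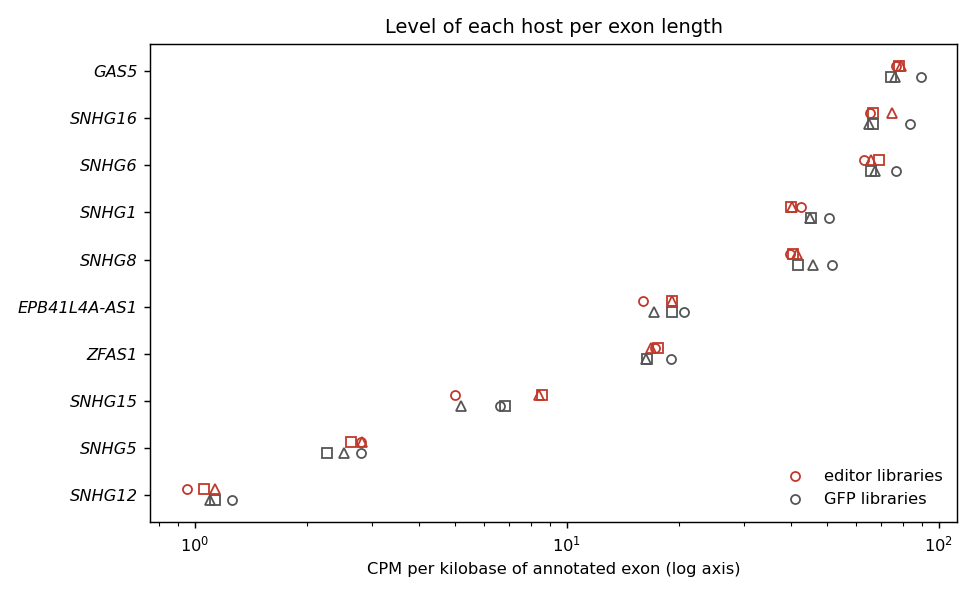
CPM per kilobase of annotated exon on a log axis for each host gene, with 1 symbol per library (circle, square and triangle for libraries 1, 2 and 3; red for editor, grey for GFP). GAS5, SNHG16 and SNHG6 share the top of the range at 62.8 to 89.4, and SNHG12 is lowest at 0.952 to 1.26.

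The study asked whether the editor changed expression beyond its target, and for these transcripts no change was detected. Over all 20511 genes tested, 5 were called at an adjusted p under 0.05 (edgeR, 0.0244%), and 0 of the 10 hosts were among them. At an unadjusted p under 0.05 there were again 0 of 10, against 8.68% of all genes. DESeq2 called 0 of 10 as well, against 0.385% of its genes. The 95% intervals of the 10 log2 fold changes lay between -0.46 and 0.71, so each of them excluded a 2-fold difference in either direction. The median over the 10 was -0.06, beside 0.02 over all genes, with 8 values below 0 and 2 above; scaled by library totals in place of TMM, 6 were below 0 and the medians were -0.01 and 0.08. In the authors' deposited table the 10 log2 fold changes ran from -0.18 (SNHG1) to 0.23 (SNHG15), and the smallest adjusted p was 0.713.

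**Figure D2:**
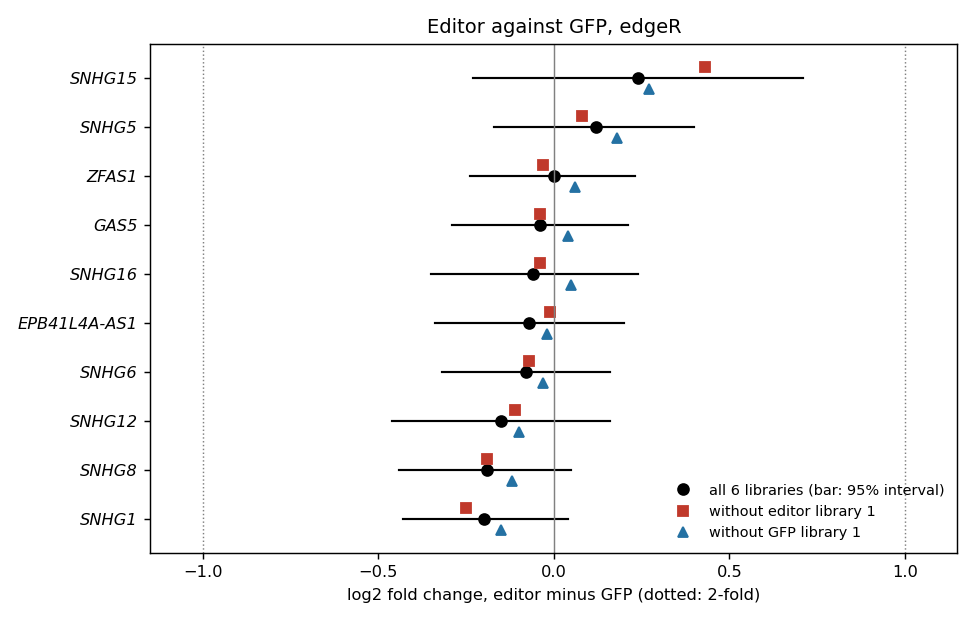
Log2 fold change of each host, editor minus GFP, with its 95% interval from all 6 libraries (black), and the estimate without editor library 1 (red squares) or without GFP library 1 (blue triangles). The intervals cross 0 and stay inside the dotted 2-fold lines, and SNHG15 moves most, from 0.24 to 0.43, when editor library 1 is left out.

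The hosts of box C/D snoRNAs are described first. SNHG1, the gene in which several snoRNAs were first found inside a transcript without a protein product, lies on chromosome 11 (62851988 to 62855914, minus strand, GRCh38). Editor libraries 1 to 3 held 159.6, 150.7 and 151.4 CPM, and GFP libraries 1 to 3 held 190.9, 169.6 and 169.1 CPM. The groups did not overlap, with every editor library below every GFP library. Mean CPM was 153.9 ± 4.98 with the editor and 176.5 ± 12.4 with GFP (SD, 3 libraries each). The difference was -0.20 on the log2 scale (SE 0.10, 95% interval -0.43 to 0.04, edgeR adjusted p = 0.624), and -0.25 without editor library 1 (edgeR adjusted p = 0.213). The exact two-sided permutation test gave p = 0.1, the smallest that 3 against 3 allows.

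GAS5 (chromosome 1, 173863900 to 173868882, minus strand) is the best known of the group, both for its accumulation in arrested cells and for an RNA stretch that binds the glucocorticoid receptor. Its levels were 278.2, 284.1 and 287.7 CPM with the editor against 324.6, 269.6 and 277.5 CPM with GFP. GFP library 1 was the high value, and the other 5 libraries lay within 269.6 to 287.7 CPM. On the log2 scale the difference was -0.04 (SE 0.11, 95% interval -0.29 to 0.21), and 0.04 without GFP library 1.

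SNHG16 (chromosome 17, 76557766 to 76565348, plus strand) hosts the SNORD1 family and is known as an RNA raised in several tumours. The editor libraries held 349.9, 357.4 and 400.8 CPM, and GFP libraries 448.8, 357.3 and 348.7 CPM. The groups overlapped, and GFP library 1 was again the highest. Its log2 fold change was -0.06 (SE 0.13, 95% interval -0.35 to 0.24), and it became 0.05 without GFP library 1.

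ZFAS1 (chromosome 20, 49278178 to 49295738, plus strand), which carries the 3 SNORD12 snoRNAs and starts beside ZNFX1 on the opposite strand, was the steadiest host. It was measured at 38.7, 39.5 and 37.7 CPM with the editor and 42.9, 36.7 and 36.5 CPM with GFP. The means were 38.6 ± 0.904 and 38.7 ± 3.64 CPM, and the 95% interval of the log2 fold change ran from -0.24 to 0.23. SNHG6 (chromosome 8), host of SNORD87, had 78.3, 86.0 and 82.1 CPM with the editor and 95.5, 81.7 and 84.2 CPM with GFP. The groups overlapped for both genes. For SNHG6 the log2 fold change was -0.08 (SE 0.11), and leaving out single libraries moved it between -0.13 (GFP library 2) and -0.03 (GFP library 1).

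SNHG5 (chromosome 6, 85660950 to 85678748, minus strand), which hosts the SNORD50 snoRNAs, was 1 of the 2 genes with an estimate above 0. Its CPM were 7.83, 7.37 and 7.9 with the editor and 7.84, 6.38 and 7.07 with GFP, on 795 to 1259 reads per library. The groups overlapped, since GFP library 1 lay within the editor range. The difference was 0.12 on the log2 scale (SE 0.13, 95% interval -0.17 to 0.40). Leaving out single libraries moved it between 0.04 (GFP library 2) and 0.18 (GFP library 1).

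The hosts of box H/ACA snoRNAs come next. SNHG8 (chromosome 4, 118278709 to 118279823, plus strand), host of SNORA24, was the other gene whose groups did not overlap on the TMM scale. Its CPM were 36.6, 37.5 and 38.4 with the editor and 47.5, 38.5 and 42.3 with GFP. The highest editor library and the lowest GFP library differed by little, and the difference on the log2 scale was -0.19 (SE 0.11, 95% interval -0.44 to 0.05, edgeR adjusted p = 0.647, exact two-sided permutation p = 0.1). With SNHG1, 2 of 10 hosts were lower without overlap, against 6.12% of all genes tested, and 0 of 10 were higher without overlap, against 8.63%. Scaled by library totals in place of TMM, SNHG8 had 35.3, 39.2 and 40.1 CPM with the editor and 47.9, 37.4 and 40.9 CPM with GFP, so its groups overlapped. The count on that scale, computed after seeing the data, was 1 of 10 (SNHG1), against 3.91% of all genes.

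SNHG15 (chromosome 7, 44983023 to 44986961, minus strand), host of SNORA9 and known as a short-lived RNA, varied most. Its CPM were 18.2, 31.3 and 30.7 in editor libraries 1 to 3 and 24.2, 24.8 and 19.0 in GFP libraries 1 to 3. The editor libraries thus held both the lowest and the highest values, which differed 1.72-fold, while the other 9 hosts differed 1.18- to 1.33-fold between their extremes. The coefficient of variation over the 6 libraries was 22.5% for SNHG15 and had a median of 9.01% over the 10 hosts, against 11.5% over the 11022 tested genes with at least the mean CPM of SNHG12. Its estimate of 0.24 on the log2 scale (SE 0.21, 95% interval -0.23 to 0.71, edgeR adjusted p = 0.771) depended on single libraries. Without editor library 1 it was 0.43 (edgeR adjusted p = 0.121), in a fit that called 0 of 10 hosts and 1.0% of all genes. The editor group of that fit was libraries 2 and 3, the pair closest in counts. Leaving out editor library 2 gave 0.11, leaving out editor library 3 gave 0.13, and leaving out GFP library 3 gave 0.11.

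EPB41L4A-AS1 (chromosome 5, 112160526 to 112164276, plus strand) carries SNORA13 and lies within EPB41L4A, which is on the opposite strand. Its levels were 53.4, 64.3 and 64.0 CPM with the editor and 68.9, 64.0 and 57.6 CPM with GFP. The groups overlapped, with a log2 fold change of -0.07 (SE 0.12). It was -0.01 without editor library 1, -0.02 without GFP library 1 and -0.15 without GFP library 3. Without editor library 2 or 3 it was -0.11. SNHG12 (chromosome 1, 28578538 to 28583132, minus strand), which hosts SNORD99 together with the H/ACA snoRNAs SNORA16A, SNORA44 and SNORA61, was the weakest, at 4.06, 4.54 and 4.82 CPM against 5.39, 4.83 and 4.67 CPM, on 433 to 768 reads. The groups overlapped here too, and the difference was -0.15 on the log2 scale (SE 0.13, 95% interval -0.46 to 0.16).

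**Figure D3:**
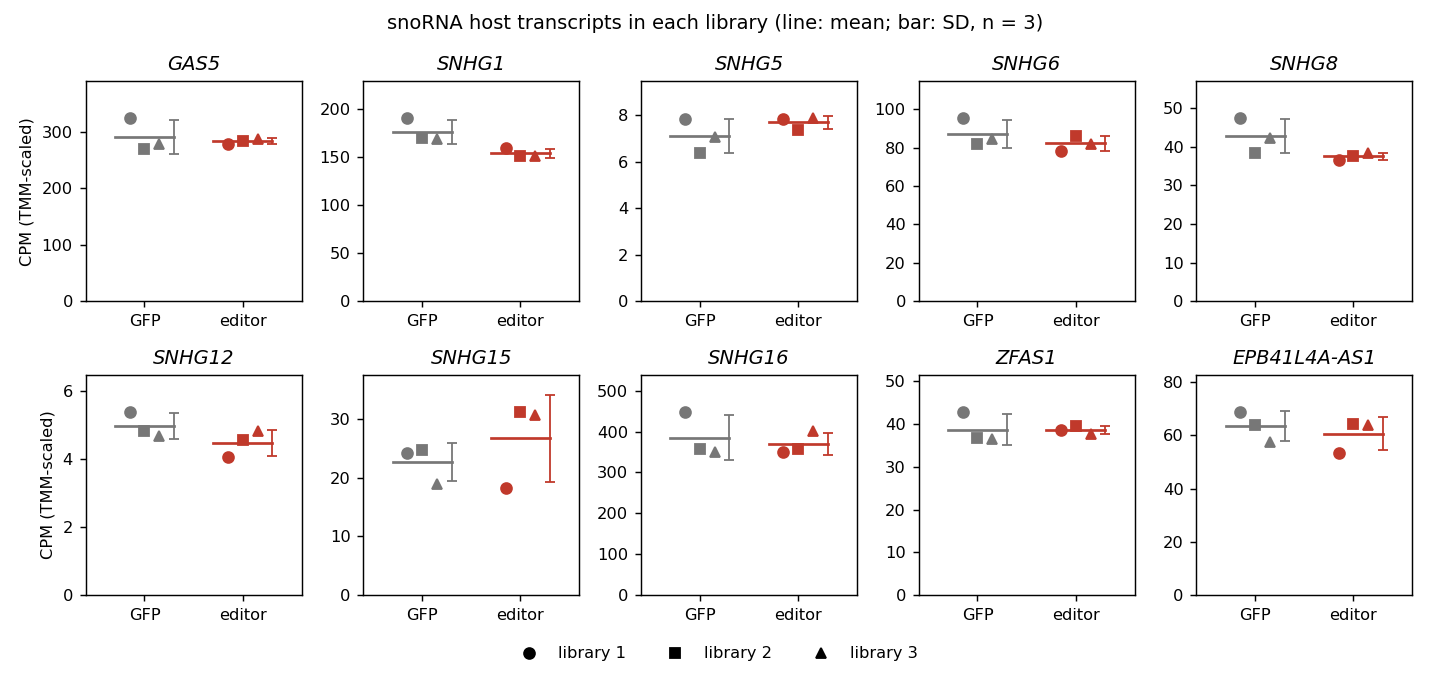
CPM of each host in the 3 GFP (grey) and 3 editor (red) libraries, with a line at the mean and a bar of 1 SD (n = 3) beside it; each axis starts at 0 and has its own scale. GFP library 1 (grey circle) is the highest of the 6 in 8 panels, and SNHG15 shows editor library 1 at 18.2 CPM apart from editor libraries 2 and 3 at 31.3 and 30.7 CPM.

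GFP library 1 was the highest of the 6 for 8 of 10 hosts, all but SNHG5 and SNHG15, against 23.2% of all genes tested. On the log2 scale the median host stood 0.18 above its own mean over the 6 libraries in GFP library 1, and -0.11 from it in editor library 1. The median ribosomal protein gene stood 0.32 above its mean in GFP library 1 and -0.12 and -0.11 from it in editor libraries 2 and 3. The median gene of the whole table moved by at most 0.02 in any library. GFP library 1 was the highest for 74 of 78 ribosomal protein genes. It was also the highest for 11 of 15 genes on the list of TOP translation factors, which holds other TOP genes too. Without GFP library 1 the median log2 fold change of the 10 hosts was 0.01, with 5 of 10 below 0, and 0 of 10 were called where 0.0190% of genes were. The median of the ribosomal protein genes was then -0.05, with 63 of 78 below 0. On the list of TOP translation factors it was -0.12, with all 15 below 0. The part of this library's state in the values of the hosts was not tested.

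**Figure D4:**
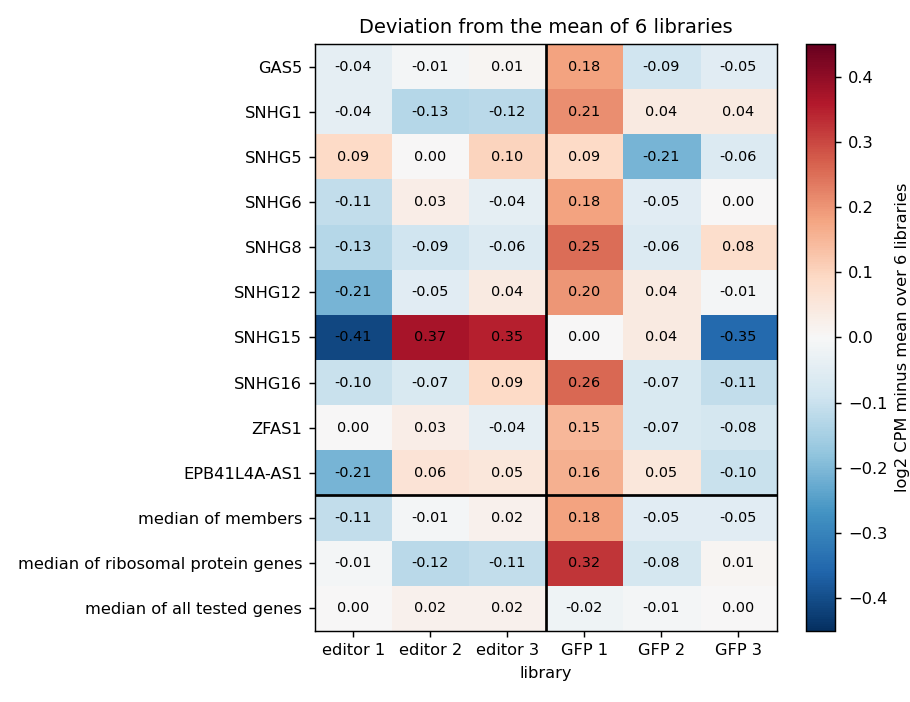
Log2 CPM of each host minus its mean over the 6 libraries, with the medians of the 10 hosts, the ribosomal protein genes and all tested genes in the lower rows. The column of GFP library 1 is above 0 in most rows, and the SNHG15 row runs from -0.41 in editor library 1 to 0.37 in editor library 2.

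Of 19 further non-coding hosts listed, 16 passed the filter, and GFP library 1 was the highest for 4 of them. SNHG22 had 25 reads in all, and SNHG28 and SNHG32 had 0. How shared reads were counted is not stated, so a row at 0 does not show that a gene is silent. None of the 16 was called, against 0.0244% of all genes. Of their log2 fold changes 11 were above 0 and 5 below, with a median of 0.05. Without editor library 1, 8 of the 16 were below 0 and the median was 0.00, and without GFP library 1, 4 were below 0 and the median was 0.15. SNHG29, host of the SNORD49 snoRNAs, had 803.9 ± 13.4 CPM with the editor and 964.2 ± 95.9 CPM with GFP, without overlap on the TMM scale (log2 fold change -0.26, SE 0.11). SNHG30 was separated in the other direction, with a log2 fold change of 0.28 (SE 0.12). SNHG11 stood at 0.41 (SE 0.17) with overlapping groups. SNHG20, at 1.69, 3.26 and 3.33 CPM in editor libraries 1 to 3 and 1.96, 1.96 and 1.89 CPM in the GFP libraries, was low in the same editor library as SNHG15, with a log2 fold change of 0.51 (SE 0.25, edgeR adjusted p = 0.602). Without editor library 1 it passed (0.74, edgeR adjusted p = 0.0458), in a fit that called 1.0% of all genes. The editor group of that fit was libraries 2 and 3, the pair closest in counts (chi-square 3.405 per degree of freedom). The part of their small spread in the p of SNHG20 was not tested.

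No gene of the protein-coding TOP lists passed the test, and most estimates were below 0. Of all 20511 genes tested, 0.0244% were called and 9365 were below 0 (7245 with library totals). On the list of TOP translation factors, which also holds other TOP genes such as VIM, 15 of 16 were tested and 0 were called. All 15 log2 fold changes were below 0 and the median was -0.14. EEF1A1, which brings aminoacyl-tRNA to the ribosome, stood at -0.31 (SE 0.11), EEF1B2, its exchange factor and itself a snoRNA host, at -0.21 (SE 0.10), EIF3E, a subunit of an initiation factor, at -0.17 (SE 0.10) and VIM, vimentin, at -0.34 (SE 0.10). Of 78 ribosomal protein genes, 0 were called, 73 were below 0 and the median was -0.17; with library totals 69 were below 0 and the median was -0.12. RPL10, a protein of the large subunit, had the smallest p of them (log2 fold change -0.37, SE 0.12). Ribosomal protein genes and EEF1A1 have many processed pseudogenes, and how shared reads were counted is not stated, so these values are uncertain. Some ribosomal protein rows were near the floor. RPS18 had means of 0.0721 CPM with the editor and 0.0923 CPM with GFP, and RPS9 had 0.401 and 0.322 CPM. Of 24 protein-coding snoRNA hosts outside the list of ribosomal protein genes, 0 were called. Some of the 24 are also on the list of TOP translation factors. Of the 24, 10 were above 0 and 14 below, with a median of -0.02. EIF4A2, an RNA helicase of initiation, stood at -0.28 (SE 0.11) and PPAN, a ribosome assembly factor, at 0.35 (SE 0.14). PPAN and EIF4A1 each share exons with an annotated readthrough gene. Their counts are uncertain, and that of EIF4A1 was 1.43 ± 0.148 against 0.966 ± 0.0498 CPM (log2 fold change 0.57, SE 0.17).

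The machinery that binds, assembles or degrades these RNAs showed 0 calls by edgeR as well, where 0.0244% of all genes were called. Over all genes tested, 11146 log2 fold changes were above 0 and 9365 below. Of 17 snoRNP proteins and assembly factors tested, 10 were above 0 and 7 below (median 0.04). COIL, the marker protein of Cajal bodies, had the smallest p of them (log2 fold change -0.16, SE 0.10). FBL, the methyltransferase of box C/D particles, stood at -0.17 (SE 0.12) and NOP58, a core protein of the same particles, at 0.16 (SE 0.12). Of 15 factors of nonsense-mediated decay, 6 were above 0 and 9 below (median -0.02), with RBM8A, a subunit of the exon junction complex, at 0.33 (SE 0.13) and SMG5, a decay adaptor, at 0.19 (SE 0.11). Of 14 protein-coding transcripts known as targets of that decay, 6 were above 0 and 8 below (median -0.01). The widest value among them was GADD45B, a stress sensor, with 14.8 ± 2.74 CPM in the editor and 7.41 ± 1.8 CPM in the GFP libraries (log2 fold change 1.0, SE 0.2, adjusted p = 0.4 by edgeR and 0.00235 by DESeq2). SRSF2, a splicing factor that limits its own level through decay, stood at 0.38 (SE 0.12), and TBL2 at -0.33 (SE 0.11). Of 15 genes of the exosome and other decay enzymes, 3 were above 0 and 12 below (median -0.08), with EXOSC1, an exosome cap subunit, at -0.23 (SE 0.12). Of 16 mTOR and TOP regulators, 13 were above 0 and 3 below (median 0.06), with TIAL1, an RNA-binding protein that also binds TOP transcripts, at -0.18 (SE 0.11) and LARP1, the protein that binds TOP tracts, at 0.13 (SE 0.12).

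The genes whose profile over the 6 libraries was nearest to the mean profile of the 10 hosts were RWDD1, TRIM65, SLC37A4, PSMC3 and TALDO1. Likeness was measured as the root mean square distance of the centred log2 CPM over 6 libraries, among 6164 other genes whose average log2 CPM was 5 or more. These 5 genes lay at distances of 0.015 to 0.023, against a median of 0.189. RWDD1, the nearest, had 111.4, 120.3 and 121.7 CPM with the editor and 132.2, 117.1 and 112.2 CPM with GFP. Among the hosts GAS5 and SNHG6 were nearest to the mean profile (0.041 each) and SNHG15 farthest (0.266).

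The snoRNA genes inside the hosts have rows of their own in the count table. GENCODE release 29 places 23 snoRNA entries on the same strand within 9 of the 10 hosts, all but GAS5. SNORA16A is entered more than once among them, at the same locus. The lack of an entry within GAS5 describes this release and does not show that GAS5 carries no snoRNA. Of the 23 entries, 4 had any reads, 116 in all 6 libraries together, and 19 had 0. All 18 that overlap an annotated exon of their host were at 0, while 4 of the 5 that lie outside its exons had reads. How reads on 2 gene models were counted is not given in the sources used here, so a row at 0 does not measure the mature snoRNA, and polyA selection does not collect it. The 4 with reads are shown in DNA letters from the GENCODE transcripts, 5′ to 3′. Capitals mark the letters TGATGA (the core of the C box) in the first 20 bases and CTGA (the D box) in the last 20. SNORD99 held no TGATGA in its first 20 bases.
SNORD99, in SNHG12: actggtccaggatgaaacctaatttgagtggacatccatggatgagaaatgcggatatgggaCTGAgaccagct
SNORD12C, in ZFAS1: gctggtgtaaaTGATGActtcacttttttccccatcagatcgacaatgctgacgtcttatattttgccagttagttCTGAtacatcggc
SNORD12B, in ZFAS1: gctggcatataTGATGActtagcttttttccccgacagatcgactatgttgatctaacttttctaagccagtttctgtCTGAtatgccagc
SNORD1B, in SNHG16: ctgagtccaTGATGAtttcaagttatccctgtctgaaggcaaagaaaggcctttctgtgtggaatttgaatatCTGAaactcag
SNORD99 held 54 reads over the 6 libraries, SNORD12C 46, SNORD1B 10 and SNORD12B 6. Summed over the 23 rows there were 25, 18 and 38 reads in the editor libraries and 17, 8 and 10 in the GFP libraries, so these rows carry too few reads for a comparison.

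Several hosts overlap genes on the opposite strand, and the strand setting of the counting is not given in the sources used here. EPB41L4A-AS1 shares 1659 exon bases with EPB41L4A, whose row held 1078 to 1814 reads per library beside 5699 to 10203 for EPB41L4A-AS1. SNHG16 shares 1639 bases with a coding gene counted at 48 to 79 reads, beside 37322 to 63858 of its own. ZFAS1 shares 249 bases with ZNFX1, a helicase gene with 4777 to 5749 reads, beside 4132 to 6001 for ZFAS1. For GAS5 the shared bases number 42, with GAS5-AS1 at 210 to 335 reads.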

How the data were processed

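RNA of 6 libraries was polyA-selected and made into TruSeq mRNA libraries, per the labels' protocols. The submitters' processing notes list HISAT2, featureCounts and limma. The deposited table holds raw counts per gene. Its build, annotation, strand setting and treatment of shared reads were not given in the sources used here. A deposited comparison by the authors gives log2 fold changes and p-values for 15273 genes, and lines after these, which repeat counts, were not used.

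Counts of all genes were fitted with edgeR 4.0.16 (R 4.3.3; default filter, TMM, quasi-likelihood F-test; differences are editor minus GFP). P-values were adjusted by Benjamini-Hochberg over 20511 genes, with a threshold of 0.05. The standard error is the log2 fold change divided by the root of F, and log2 CPM had a prior count of 2. Alternatives were RLE scaling, library totals, other filters, DESeq2 1.42.0, limma-voom (3.58.1), a replicate block, editor libraries 2 and 3 summed, and each library left out. The titles call each library a biological replicate, but no label tells whether these were separate cultures, so a p-value covers the spread of these samples, which may be technical. Positions and lengths come from GENCODE release 29 (GRCh38), which may be older than the annotation counted, and promoters from RefSeq (GRCh38.p14).

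Members and lists were chosen with earlier results of these data known. Named genes are the 10 hosts, genes among the 4 with the smallest p of a list, and the 5 nearest in profile. APP, SNHG22, SNHG28, SNHG32, RPS9, RPS18 and genes overlapping a host lie outside this rule.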

Additional observations from a re-analysis of the deposited data

How the results depend on the processing

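The call of 0 of 10 hosts was the same in all 14 alternatives, and the smallest adjusted p of a host in any was 0.121 (SNHG15 without editor library 1). Of 140 host values, 131 kept their direction. The other 9 changed sign close to 0. With library totals GAS5 was 0.0148 and ZFAS1 0.0468, and ZFAS1 was 0.00807 with at least 50 reads in 3 libraries, 7.89e-05 with limma-voom and 0.000234 with the replicate block. Over the libraries left out GAS5 ran from -0.0895 to 0.0356, SNHG16 from -0.141 to 0.0502 and ZFAS1 from -0.059 to 0.0617. The 5 calls over all genes became 307 without the low-count filter, 79 with DESeq2, 3 with limma-voom, 1 with the replicate block and 1 to 213 over the libraries left out, 213 being without editor library 1 and 1 without GFP library 2. The number of genes called on the related lists, 0, was 1 without the low-count filter and 1 with DESeq2, GADD45B both times, and 0 to 1 over the libraries left out. The labels do not tell whether libraries sharing a replicate number were prepared together. Deviations from the group means of libraries sharing a number correlated at -0.0485, 0.173 and -0.237. With 3 libraries per group these values cannot decide whether the libraries are paired. With the longest transcript as length, 4 of 10 hosts kept their rank. The causes of these shifts were not tested. The count of hosts lower without overlap went from 2 to 1 with library totals, an alternative chosen after seeing the data. The snoRNA genes held 116 reads in all.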
